A study of Rattus norvegicus with 6 samples.

Results

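The genes described here are the rat MHC genes, whose symbols carry the prefix RT1-, together with genes that load and control MHC molecules. They were chosen by name: every symbol starting with RT1- in the count table, plus B2m, Tap1, Tap2, Tapbp, Erap1, Cd74, Ciita and Nlrc5. The table held 58 of them among 17487 symbols, 51 with the RT1- prefix and 7 of the 8 others. Nlrc5 was not analysed here. Of the RT1 symbols, 10 were class II (RT1-B, RT1-D, RT1-DM, RT1-DO and RT1-H names) and the other 41 were taken as class I.

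Both groups were adult male Wistar rats, an outbred laboratory strain, and heart RNA was sequenced with 1 library per animal. The 3 doxorubicin rats received doxorubicin hydrochloride, an anthracycline chemotherapy drug that is toxic to the heart, by tail vein at 3.75 mg/kg weekly for 4 weeks. The 3 control rats received the vehicle, 0.9% saline. The region of the heart, the interval after the last dose and the MHC haplotypes of the rats were not given in the sources used here. The comparison asks how the drug course altered heart RNA.

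MHC class I molecules are carried by most nucleated cells and pair a heavy chain with the light chain beta-2 microglobulin (B2m). They present peptides that the proteasome cuts, the Tap1 and Tap2 transporter pumps into the endoplasmic reticulum, Erap1 trims and Tapbp (tapasin) helps to load. Class II molecules are heterodimers of an alpha and a beta chain, made mainly by dendritic cells, macrophages and B cells, guarded by the invariant chain Cd74 and loaded through the DM proteins. In the healthy heart class II lies mostly on resident macrophages and dendritic cells. Rat MHC haplotypes differ in sequence and in the number of class I genes they carry.

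The promoters of both classes carry short elements through which they are switched on, and these are shown for members of each class that are described below. RefSeq promoters (assembly GRCr8, 250 bases before to 50 after a gene's start) were found for 46 of the 58 members. The class I windows below run 5′ to 3′ on the gene's strand, with GGGATTCC (core of an NF-kB element) and TTTCACTTC (core of an interferon-stimulated element) in capitals. They lie at chr20:4907072-4907124 (+), chr20:4872686-4872737 (+), chr20:3525301-3525353 (-) and chr20:3265533-3265585 (-).
RT1-A1: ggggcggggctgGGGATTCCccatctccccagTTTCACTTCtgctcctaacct
RT1-A2: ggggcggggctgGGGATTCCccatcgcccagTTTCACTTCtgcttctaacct
RT1-CE3: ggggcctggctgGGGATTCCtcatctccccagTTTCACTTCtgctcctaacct
RT1-CE16: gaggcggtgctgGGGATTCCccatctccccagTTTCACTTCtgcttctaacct

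In the class II windows capitals mark the Y box CTGATTGG, found in all 4, and the X box core AACNGATG, found in RT1-Da and RT1-Db1 only among these 4. Both are elements that the class II transactivator complex reads. They lie at chr20:4576971-4577030 (+), chr20:4604163-4604222 (-), chr20:4515323-4515382 (+) and chr20:4560226-4560285 (-).
RT1-Ba: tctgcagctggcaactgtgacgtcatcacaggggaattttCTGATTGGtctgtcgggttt
RT1-Bb: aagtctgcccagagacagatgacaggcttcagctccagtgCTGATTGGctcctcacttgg
RT1-Da: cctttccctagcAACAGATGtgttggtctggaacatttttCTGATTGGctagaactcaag
RT1-Db1: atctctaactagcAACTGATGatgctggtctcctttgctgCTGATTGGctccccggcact

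Each motif was searched on both strands of all 33469 RefSeq promoters of the same length. GGGATTCC stood in 10 of 32 class I promoters, 0 of 9 class II promoters and 1.23% of all promoters. TTTCACTTC stood in 11 of 32 class I promoters, 0 of 9 class II promoters and 0.469% of all, and also in that of Tap2. CTGATTGG stood in 7 of 9 class II promoters, 12 of 32 class I promoters and 3.5% of all. Its class II matches were all on the gene's strand and its class I matches all on the opposite strand. AACNGATG stood in 4 of 9 class II promoters (RT1-Da, RT1-Db1, RT1-Db2 and RT1-DOb), in 0 of 32 class I promoters and in 2.58% of all. The motifs do not overlap one another in the windows printed, and a match describes letters, not binding.

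The libraries held 2219685 to 3508282 counts, and values are given as CPM, counts scaled to a common library total with edgeR's TMM factors. A floor of 3 counts was 0.852 to 1.33 CPM, and intervals and floors cover counting error only. On the first principal component, which held 38.4% of the variance of log2 CPM, control 1 stood apart from the other 5 libraries. Many RT1 genes are near-identical copies, and 12 pairs among 14 members have overlapping gene spans in RefSeq. The counting mode and the use of strand were not given in the sources used here, so values of single RT1 genes are uncertain where reads could be split between copies. Every value is a level in whole tissue, where fewer cells of a type and less RNA per cell cannot be told apart.

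After the low-count filter 31 of the 58 members were tested among 9205 symbols. The 27 others comprised 11 class I symbols listed at 0 in every library, 12 symbols under 10 counts in every library and 4 that reached 10 in at least 1 library. Ciita, the class II transactivator, had 0 counts in 5 libraries and 1 in doxorubicin 3. Its symbol stands on 3 rows of the table, and 50.9% of symbols on 3 rows were at 0 in every library, against 24.6% of symbols on 1 row, so its level in the tissue cannot be read from these counts. With edgeR's quasi-likelihood test 0 of the 31 passed an adjusted p of 0.05, where 5 of all tested symbols did (0.0543%), and the lowest adjusted p of a member was 0.321. At an unadjusted p under 0.05 there was 1 member higher with doxorubicin, RT1-CE3, against 4% of all symbols, and 1 lower, RT1-T24-4, against 4.11%. These were also the tested members whose groups did not overlap, 1 with every doxorubicin library above the controls (6.39% of all symbols) and 1 with every one below (7.06%). The log2 fold change was above 0 for 18 tested members and below 0 for 13, with a median of 0.02, the same as the median of 0.02 over all tested symbols. Of all tested symbols 52.1% were above 0.

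**Figure D1:**
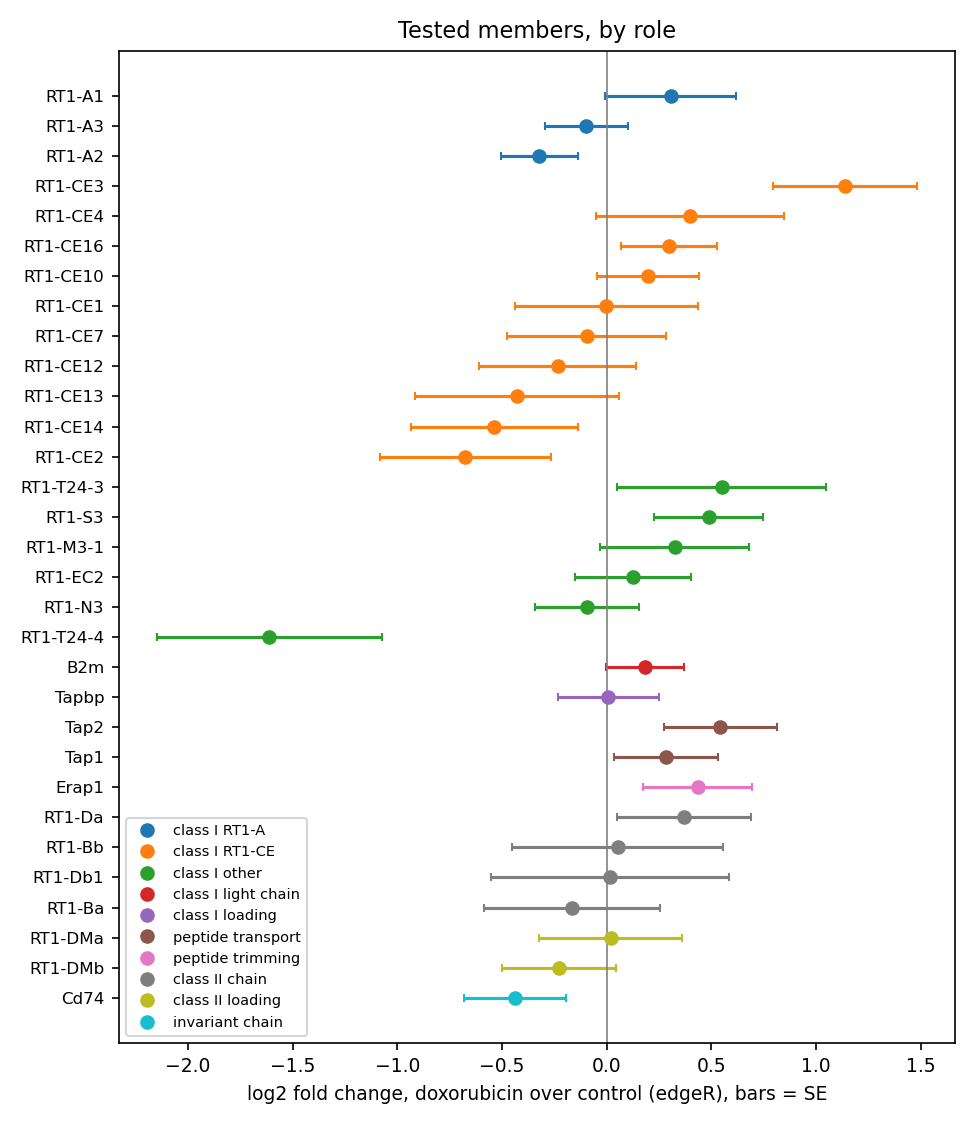
Log2 fold change of doxorubicin over control for the 31 tested members (horizontal axis, edgeR, 3 libraries a group), coloured by role, with bars for the standard error. RT1-CE3 at 1.14 and RT1-T24-4 at -1.61 lie farthest from 0, and the other members are spread on both sides of it.

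Class II genes varied more among the doxorubicin rats than between the groups. RT1-Ba, the alpha chain of the B molecule, was at 118, 65.7 and 59.6 CPM in controls 1 to 3 and at 43.0, 129 and 45.1 CPM in doxorubicin 1 to 3. Its partner beta chain RT1-Bb was at 43.9, 17.8 and 25.3 CPM in the controls and at 18.3, 57.7 and 14.4 CPM with doxorubicin. In both genes doxorubicin 2 was the highest library and control 1 the second, and the groups overlapped. By edgeR the log2 difference was -0.17 for RT1-Ba (SE 0.42, edgeR adjusted p = 0.946) and 0.05 for RT1-Bb (SE 0.50, adjusted p = 0.986).

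In the D molecule too, doxorubicin 2 was the highest library and control 1 the second. RT1-Da, its alpha chain, was at 90.5, 65.3 and 58.2 CPM in the controls and at 80.9, 145 and 49.8 CPM with doxorubicin (log2 fold change 0.37, SE 0.32, adjusted p = 0.803). RT1-Db1, its beta chain, was at 98.1, 54.6 and 50.5 CPM in the controls and at 40.1, 133 and 32.1 CPM with doxorubicin (log2 fold change 0.02, SE 0.57, adjusted p = 0.995). Doxorubicin 2 was highest in both, at 2.04 and 1.97 times the control mean. In doxorubicin 1 the alpha chain was within the control range while the beta chain was below it, and RT1-Da made up 44.4% of the counts of the 4 B and D chains in that library against 25.8% to 35.2% in the others.

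The DM proteins load class II with peptide. RT1-DMb, the beta chain of DM, was at 112, 52.9 and 77.2 CPM in the controls and at 52.6, 92.4 and 62.5 CPM with doxorubicin. RT1-DMa was at 18.3, 9.77 and 12.5 CPM in the controls and at 12.2, 19.3 and 9.73 CPM with doxorubicin. RT1-DMa was highest in doxorubicin 2, RT1-DMb was highest in control 1, and both groups overlapped (log2 fold changes 0.02, SE 0.34, and -0.23, SE 0.27). The DO chains, which restrain DM, were counted 4, 4 and 10 times in the controls and 4, 20 and 6 times with doxorubicin for RT1-DOa, and 0, 1 and 3 times against 3, 11 and 5 times for RT1-DOb. For RT1-DOb every doxorubicin library was above the controls in CPM, but doxorubicin 1 and control 3 had 3 counts each and differed only through scaling. The groups overlapped for RT1-DOa, and neither gene had enough counts to be tested. RT1-Ha and RT1-Db2 reached 2 counts and 1 count at most.

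Cd74, the invariant chain that escorts new class II molecules, was at 1263, 996 and 935 CPM in the controls and at 580, 1129 and 647 CPM with doxorubicin. Doxorubicin 1 and 3 lay below every control, and doxorubicin 2 lay within the control range. By edgeR the log2 difference came to -0.44 (SE 0.24), with an adjusted p of 0.679. Per 100 counts of Cd74 the B and D chains had 27.8, 20.5 and 20.7 counts in the controls and 31.5, 41.2 and 21.9 with doxorubicin, so doxorubicin 2 stood highest for the chains relative to the invariant chain too.

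**Figure D2:**
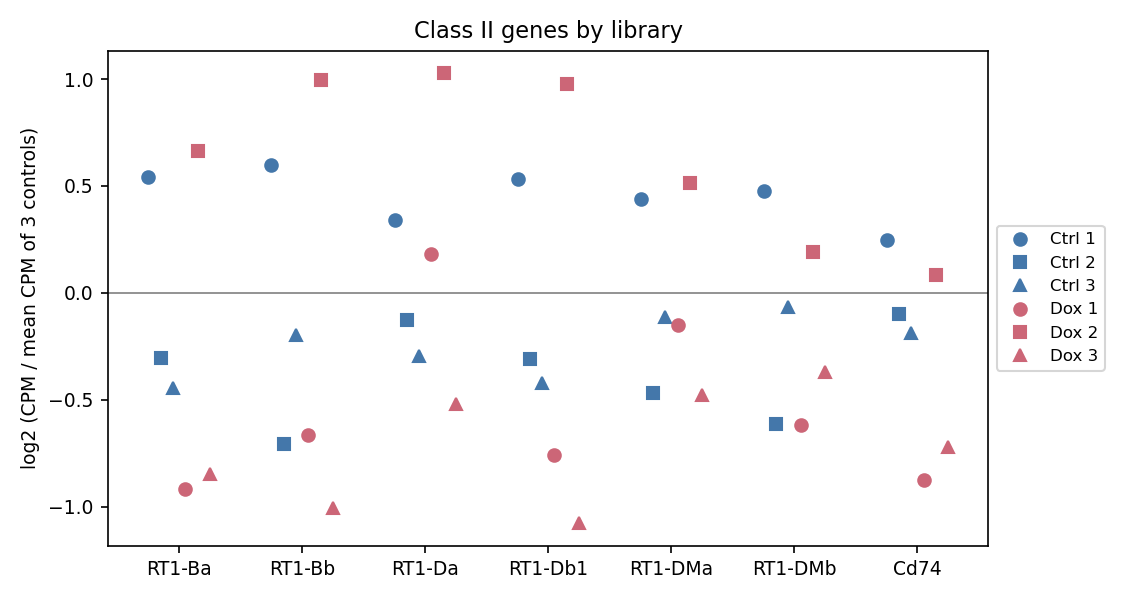
Level of 6 class II genes and Cd74 in each library, as log2 of its CPM over the mean of the 3 controls (vertical axis), with controls in blue, doxorubicin in red and the replicate number as the marker shape. Doxorubicin 2 is the highest point for 5 of the 7 genes, while doxorubicin 3 lies below 0 for all 7 and doxorubicin 1 for all but RT1-Da.

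Leaving out doxorubicin 2 turned RT1-Bb, RT1-Da, RT1-Db1 and RT1-DMa to negative values and lowered the others. Without it the log2 fold change was -0.78 for Cd74 (edgeR, unadjusted p = 0.00397, adjusted p = 0.207), -0.87 for RT1-Ba (0.0104, adjusted 0.309), -0.89 for RT1-Db1 (0.0104, adjusted 0.309) and -0.81 for RT1-Bb (0.0420, adjusted 0.502). With RT1-T24-4 these made 5 of 31 members lower at an unadjusted p under 0.05, against 4.39% of all symbols in that fit, and RT1-CE3 was the 1 higher, against 5.15%. No member passed the adjusted threshold in that fit. Leaving out doxorubicin 3 instead also gave 6 of 31 members at an unadjusted p under 0.05, against 602 of 9384 symbols. There RT1-CE3, Tap2, RT1-S3, RT1-Da and Tap1 were higher (edgeR, 0.00203, 0.00244, 0.0154, 0.0220 and 0.0358). RT1-T24-4 was lower (0.0313), and 0 members passed the adjusted threshold. Leaving out doxorubicin 1 gave 4 of 32 members, against 631 of 9426 symbols. Leaving out control 1, 2 or 3 gave 4 of 32 each, against 531 of 9465, 876 of 9425 and 636 of 9404 symbols. RT1-T24-1, described below, was among the 4 in each of these fits. The controls mattered as well: leaving out control 2 or control 3 also turned RT1-Bb, RT1-Db1 and RT1-DMa negative, and leaving out control 1 turned RT1-Ba and RT1-DMb positive, at 0.21 and 0.083. RT1-Ba was also positive without doxorubicin 1 or doxorubicin 3, and RT1-Da was negative without doxorubicin 2 alone.

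Among the class I heavy chains, the RT1-A genes hold the main peptide-presenting class I molecules of the rat. RT1-A1 was at 53.8, 32.0 and 51.4 CPM in the controls and at 38.2, 89.5 and 42.7 CPM with doxorubicin (log2 fold change 0.31, SE 0.31, and -0.17 without doxorubicin 2). RT1-A2 was at 134, 99.5 and 126 CPM in the controls and at 91.2, 105 and 91.7 CPM with doxorubicin (log2 fold change -0.32, SE 0.18, adjusted p = 0.687). RT1-A1 was highest in doxorubicin 2 and RT1-A2 in control 1, so neighbouring genes of 1 family did not share their order of libraries. RT1-A3 was at 66.7 ± 8.99 CPM in the controls and 62.5 ± 9.30 CPM with doxorubicin (SD, n = 3), and the symbol RT1-A had at most 4 counts.

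Of the RT1-CE genes, a second cluster of class I loci, RT1-CE3 differed most between the groups. It had 22, 37 and 29 counts in the controls and 65, 106 and 60 with doxorubicin, or 8.40, 16.4 and 8.24 CPM against 20.9, 33.1 and 17.7 CPM. Every doxorubicin library was above every control, though doxorubicin 3 and control 2 lay close together. The level was 2.20-fold higher by the fitted log2 fold change of 1.14 (SE 0.34, edgeR unadjusted p = 0.00513, adjusted p = 0.321). With each library left out in turn it ranged from 0.84 to 1.53, and the unadjusted p from 0.000918 to 0.0375. RT1-CE16 was at 184, 122 and 135 CPM in the controls and at 147, 243 and 153 CPM with doxorubicin (log2 fold change 0.30, SE 0.23), with doxorubicin 2 the highest.

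The remaining tested RT1-CE genes overlapped between groups. RT1-CE4 and RT1-CE10 had positive log2 fold changes of 0.40 (SE 0.45) and 0.20 (SE 0.24). RT1-CE2 was lowest in doxorubicin 2, at 5.93 CPM against 14.7 to 34.0 CPM in the controls, and its fitted log2 difference was -0.68 (SE 0.41). RT1-CE13 was lowest there too, at 2.496 CPM. The log2 fold changes were -0.54 for RT1-CE14, -0.43 for RT1-CE13, -0.23 for RT1-CE12, -0.10 for RT1-CE7 and -0.00 for RT1-CE1. RT1-CE11 had 3 to 12 counts and was not tested. Doxorubicin 2 was thus not high for every class I gene: it was the highest library for 9 of 19 tested class I members and the lowest for 3, against the highest for 5 of 6 tested class II members and for 12.5% of all tested symbols.

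Among the other class I symbols RT1-S3 was at 69.1, 95.1 and 87.8 CPM in the controls and at 95.3, 176 and 82.2 CPM with doxorubicin (log2 fold change 0.49, SE 0.26, adjusted p = 0.666). Doxorubicin 2 was at 2.09 times the control mean, and the groups overlapped. RT1-M3-1, whose mouse counterpart presents formylated bacterial peptides, was at 7.77 ± 1.70 CPM in the controls and 9.64 ± 2.24 CPM with doxorubicin. RT1-N3 was at 27.7 ± 5.002 against 26.1 ± 5.84 CPM, and RT1-EC2 at 47.9 ± 9.91 against 52.1 ± 19.8 CPM (SD, n = 3).

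The RT1-T24 symbols, a family of class I copies, differed between libraries in their shares of the family's counts. RT1-T24-4 had 37, 27 and 34 counts in the controls and 26, 7 and 4 with doxorubicin, or 14.1, 11.99 and 9.66 CPM against 8.35, 2.18 and 1.18 CPM. All 3 doxorubicin libraries were below the controls, doxorubicin 1 only slightly. It was 3.05-fold lower by the fitted log2 fold change of -1.61 (SE 0.54, edgeR unadjusted p = 0.00965, adjusted p = 0.397). With each library left out in turn it ranged from -2.79 to -1.16, and the unadjusted p from 0.000112 to 0.0449. RT1-T24-3 had 28, 30 and 34 counts in the controls and 22, 107 and 29 with doxorubicin, high in doxorubicin 2 only (log2 fold change 0.55, SE 0.50, adjusted p = 0.813, and -0.50 without that library). RT1-T24-1 had 0 counts in every control and 4, 21 and 16 with doxorubicin. RT1-T24-2 had at most 3 counts.

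RT1-T24-1 was seen in all 3 doxorubicin libraries and in none of the controls. It was at 1.28, 6.55 and 4.72 CPM in doxorubicin 1 to 3, and doxorubicin 1, with 4 counts, lay near the floor of a single library. Pooled over the 3 doxorubicin animals, its level was 4.22 CPM from 41 counts. That was at least 11.8-fold higher than the floor of 3 counts over the control group. Pooling hides the spread between animals, so this bound does not hold for each of them. The low-count filter kept RT1-T24-1 out of the main edgeR test. With no filter its edgeR adjusted p was 0.00448 and with DESeq2 it was 0.0122. In those fits 61 and 74 of 13050 symbols passed the adjusted threshold. RT1-T24-1 also passed the filter with control 1, control 2, control 3 or doxorubicin 1 left out. Its edgeR adjusted p was then 0.378, 0.182, 0.395 and 0.154, above the adjusted threshold in each of these fits. Without a count in any control, RT1-T24-1 entered every fit through its doxorubicin counts alone. The p-values are therefore not separate support for a difference.

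As shares of the family's counts, RT1-T24-4 made up 56.9%, 45.0% and 50% in the controls and 50%, 5.11% and 8.16% with doxorubicin. The exact (Clopper-Pearson) 95% interval was 2.08% to 10.2% in doxorubicin 2 and 2.27% to 19.6% in doxorubicin 3, and 32.1% at the lowest in the controls. RT1-T24-1 made up 7.69%, 15.3% and 32.7% with doxorubicin. Doxorubicin 1 therefore held RT1-T24-4 at a control-like share, unlike the other 2. In RefSeq the spans of RT1-T24-2, RT1-T24-3 and RT1-T24-4 overlap, so their reads may have been split. The MHC haplotypes of these outbred rats were not given. For single RT1 genes a difference by drug and one by haplotype therefore cannot be told apart here.

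The promoters of RT1-T24-1 and RT1-T24-3 are printed because they show how alike parts of these 2 copies are in RefSeq. The transcribed sequences were not compared. The capitals mark the longest run that both promoters hold, 46 bases, against 13 bases shared by RT1-T24-1 and RT1-T24-4 and 17 by RT1-T24-3 and RT1-T24-4. They lie in GRCr8 at chr20:2766268-2766353 (+) and chr20:2723043-2723138 (+).
RT1-T24-1: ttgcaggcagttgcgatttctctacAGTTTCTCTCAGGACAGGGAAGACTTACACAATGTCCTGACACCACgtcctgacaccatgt
RT1-T24-3: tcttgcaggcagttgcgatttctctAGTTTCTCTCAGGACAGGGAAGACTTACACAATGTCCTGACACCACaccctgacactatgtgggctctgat

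**Figure D3:**
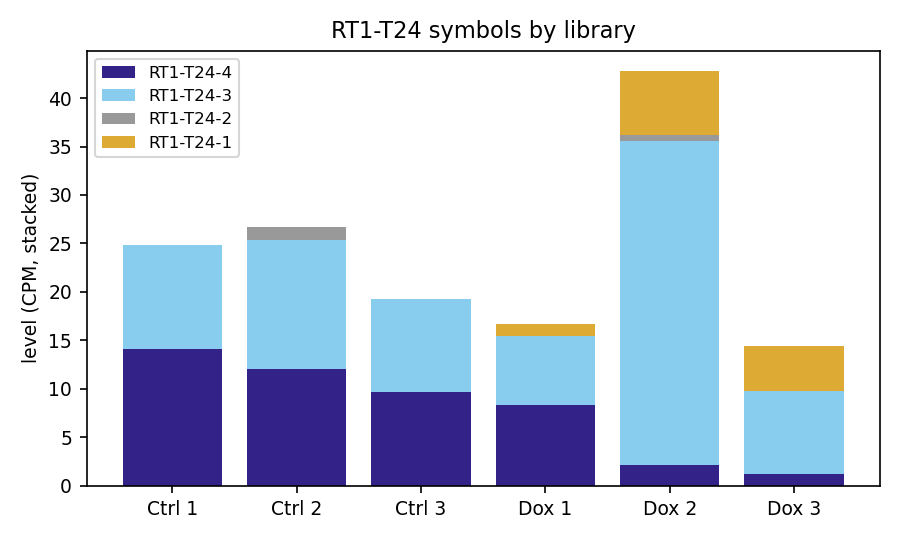
Level of the 4 RT1-T24 symbols in each library (vertical axis, CPM, stacked by symbol). RT1-T24-4 makes up a large part of the bar in the controls and doxorubicin 1 and little of it in doxorubicin 2 and 3, and RT1-T24-1 appears with doxorubicin only.

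The light chain and the loading proteins of class I overlapped between the groups. B2m was at 1534, 1312 and 1372 CPM in the controls and at 1315, 1706 and 1773 CPM with doxorubicin (SE 0.19, adjusted p = 0.835). Tap2, a subunit of the peptide transporter, was at 37.4, 52.4 and 51.7 CPM in the controls and at 89.6, 76.4 and 40.4 CPM with doxorubicin, and the log2 difference was 0.54 (SE 0.27, unadjusted p = 0.0646, adjusted p = 0.627). Its other subunit Tap1 was at 50.02, 41.3 and 44.3 against 54.2, 74.9 and 36.3 CPM (log2 fold change 0.28, SE 0.25). Both transporter genes were above all controls in doxorubicin 1 and 2, and doxorubicin 3 was within or below the control range.

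Erap1, the trimming peptidase, was at 24.8, 48.4 and 54.8 CPM in the controls and at 50.7, 60.5 and 62.5 CPM with doxorubicin (SE 0.26, adjusted p = 0.703), and its low control was control 1. Tapbp was at 74.5, 47.1 and 52.3 against 45.9, 76.1 and 52.8 CPM, with a log2 fold change of 0.01 (SE 0.24).

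Summed over all 41 symbols, class I stood at 777, 628 and 676 CPM in the controls and at 686, 954 and 613 CPM with doxorubicin, 694 ± 76.2 against 751 ± 180 CPM (SD, n = 3). Class II summed to 483, 269 and 287 CPM in the controls and to 250, 586 and 218 CPM with doxorubicin, 346 ± 119 against 351 ± 204 CPM. Doxorubicin 2 was at 1.38 times the control mean for class I and 1.69 times for class II. The difference between the groups' mean log2 levels was 0.09 for class I and -0.07 for class II, smaller than the spread between libraries. For class II its sign is opposite to that of the difference in mean CPM. No test was made of sums over members. Without doxorubicin 2 it was -0.09 for class I and -0.52 for class II, and without control 1 the class II difference was 0.19.

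The class II share of RT1 counts within a library does not depend on how libraries are scaled. It was 38.3%, 30.0% and 29.8% in the controls and 26.7%, 38.1% and 26.2% with doxorubicin, 32.7 ± 4.87% against 30.3 ± 6.70% (SD, n = 3). The exact 95% intervals were 36.7% to 40% in control 1 and 36.7% to 39.4% in doxorubicin 2, and the upper limits of the other 4 libraries were 32.0% at most. The log2 ratio of class II to class I was thus high in 1 library of each group and differed by -0.17 between the group means, with SDs of 0.31 and 0.45.

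**Figure D4:**
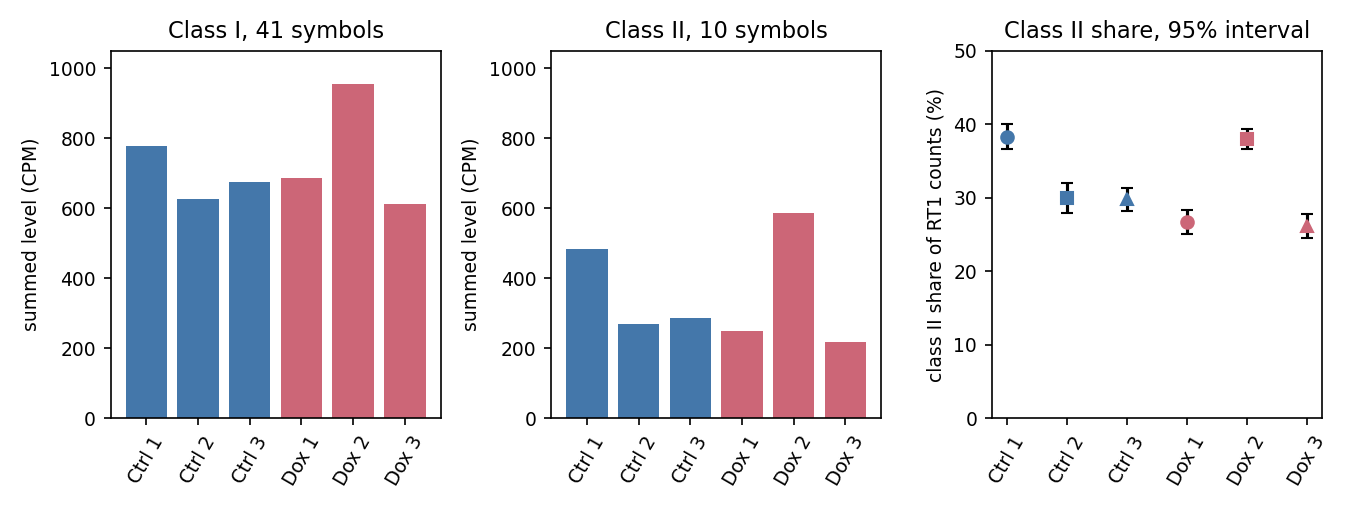
Summed CPM of the 41 class I symbols (left) and the 10 class II symbols (middle), as bars from 0, and the class II share of RT1 counts in percent with its exact 95% interval (right), for each library. Control 1 and doxorubicin 2 stand at 38.3% and 38.1% and the other 4 libraries at 26.2% to 30.0%.

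Other genes of the pathway came from chosen lists, and 0 of the 59 that were tested passed the adjusted threshold. Of the 59, 6 had an unadjusted p under 0.05 or groups that did not overlap, and these are named. Over all symbols, 6.39% had every doxorubicin library above the controls and 7.06% every one below. All 5 immunoproteasome and activator genes were tested, 3 with positive and 2 with negative log2 fold changes (median 0.08), and 0 had an unadjusted p under 0.05. All 5 peptide-loading genes in the table were tested, 4 positive and 1 negative (median 0.25). The class II route, mostly lysosomal proteases, had 4 positive and 3 negative (median 0.11), and the regulators had 9 positive and 4 negative (median 0.09), against the median of 0.02 over all tested symbols. Rfx5, which binds the X box of class II promoters, was at 11.1, 16.4 and 14.8 CPM in the controls and at 21.8, 22.2 and 26.8 CPM with doxorubicin, with no overlap (SE 0.26, unadjusted p = 0.0132, adjusted p = 0.438). Among class I-like genes Cd1d1, which presents lipids, was at 56.1, 83.5 and 82.6 CPM in the controls and at 52.3, 45.2 and 50.7 CPM with doxorubicin, with no overlap (log2 fold change -0.58, SE 0.21, adjusted p = 0.439).

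Over all tested symbols 52.1% of log2 fold changes were above 0, and doxorubicin 2 was the highest library for 12.5%. Of 26 tested interferon-response genes 20 had positive and 6 negative log2 fold changes (median 0.22), and doxorubicin 2 was the highest library for 22. Their summed level was 1094, 1083 and 1151 CPM in the controls and 851, 1675 and 763 CPM with doxorubicin, so doxorubicin 1 and 3 were below the controls and doxorubicin 2 above, as for the class II sum. The chemokine Cxcl11 was at 58.0, 56.0 and 60.2 CPM in the controls and at 27.3, 36.2 and 32.7 CPM with doxorubicin (log2 fold change -0.86, SE 0.20, adjusted p = 0.157). Irgm (1.04, SE 0.37, adjusted p = 0.438) and Cxcl10 (1.06, SE 0.46, adjusted p = 0.576) were higher without overlap, and Gbp5 (0.80, adjusted p = 0.534) with overlap. Thus 2 of the 26 had every doxorubicin library above the controls and 1 every one below, against 6.39% and 7.06% of all symbols. At an unadjusted p under 0.05, 3 were higher and 1 lower, against 4% and 4.11%.

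Markers of the cells that carry class II were read beside it. The 16 macrophage and monocyte markers summed to 298, 286 and 282 CPM in the controls and to 337, 551 and 373 CPM with doxorubicin, with no overlap, and Mpeg1, which stands on 2 rows, was at 0. Of the 12 tested, 11 had positive log2 fold changes (median 0.37) and 10 were highest in doxorubicin 2, against 52.1% and 12.5% of all tested symbols. Adgre1 was the negative one, at -0.15. Lyz2 was the largest part of the sum in every library. It was at 116, 87.5 and 88.3 CPM in the controls and 126, 225 and 164 CPM with doxorubicin. Ly86, with too few counts to be tested, was below every control in all doxorubicin libraries. The 9 dendritic cell markers in the table summed to 27.1, 43.1 and 34.7 against 43.7, 68.3 and 34.8 CPM, with Cd209a at 0. The 6 leukocyte markers summed to 68.0, 56.9 and 53.1 against 57.1, 95.5 and 54.8 CPM, with Ptprc, on 5 rows, at 0, and the 6 B cell markers in the table to 0.89 to 4.58 CPM in the controls and 1.18 to 3.74 CPM with doxorubicin. Every doxorubicin library was above the controls for 2 of 12 tested macrophage markers (Lyz2 and Mrc1), against 6.39% of all symbols. The same held for 1 of 4 tested dendritic cell markers (Cd83) and 1 of 4 tested leukocyte markers (Itgb2). Itgb2 was at 3.44, 4.44 and 5.11 CPM in the controls and 10.9, 12.8 and 11.2 CPM with doxorubicin (edgeR adjusted p = 0.188). Macrophage, dendritic cell and leukocyte sums were each highest in doxorubicin 2, and their part in the class II levels was not tested. The sum of the 8 fibroblast markers was highest in doxorubicin 2 too. It was 2786, 2950 and 3085 CPM in the controls and 2499, 3923 and 2356 CPM with doxorubicin.

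Per 100 counts of macrophage markers the B and D chains had 118, 71.4 and 68.8 counts in the controls and 54.1, 84.4 and 38.0 with doxorubicin. Relative to these markers doxorubicin 2 thus lay above controls 2 and 3 and below control 1 only. Doxorubicin 1 and 3 lay below every control. Per 100 counts of the leukocyte markers the chains had 516, 359 and 365 counts in the controls and 319, 487 and 258 with doxorubicin. There too doxorubicin 2 lay between control 1 and the other controls, and doxorubicin 1 and 3 lay below every control. The T cell markers summed to 14.2 to 18.2 CPM in the controls and 10.9 to 15.7 CPM with doxorubicin. Cardiomyocyte markers, which identify the tissue, summed to 137039 to 158679 CPM in the controls and 112132 to 127126 CPM with doxorubicin, and endothelial markers to 1436 to 1609 and 1134 to 1583 CPM.

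**Figure D5:**
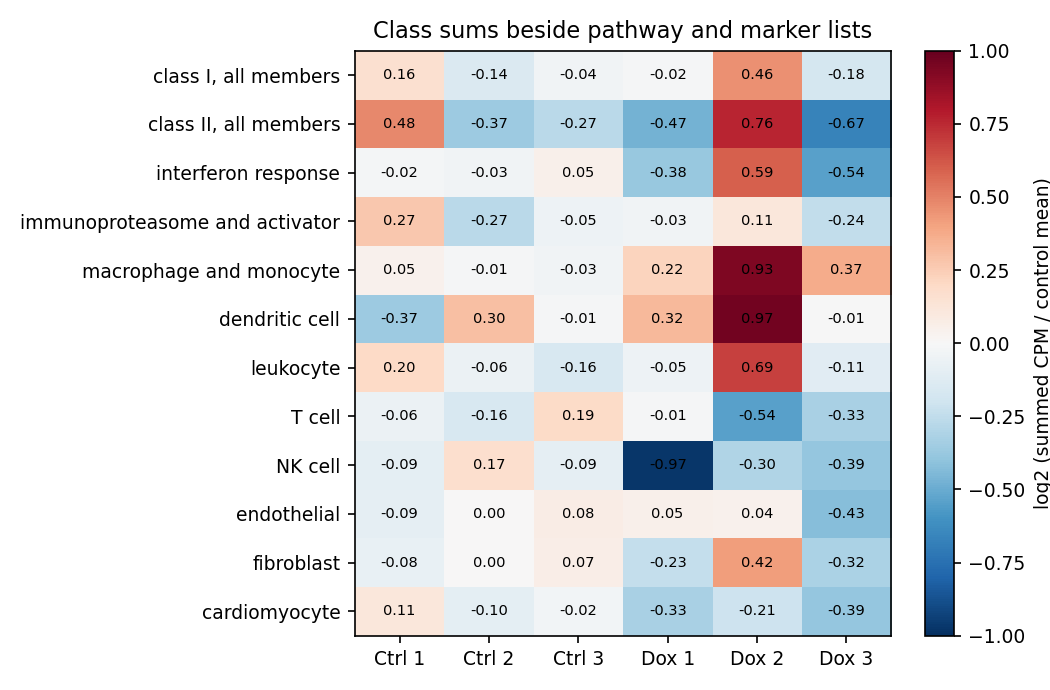
Log2 of the summed CPM over the control mean (colour and printed value) for the class I and class II sums and 10 gene lists (rows) in each library (columns). Doxorubicin 2 is at 0.76 for class II, 0.60 for the interferon list and 0.93 for macrophage markers, while doxorubicin 1 and 3 are negative for class II and interferon and positive for macrophage markers.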

How the data were processed

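Heart RNA of 6 rats was measured with 1 library per animal. The authors deposited raw counts per annotated feature in 1 table of 18473 rows, with no normalization. The submitters' processing notes name FastQC, Trimmomatic, STAR, HTSeq and the build mRatBN7.2, and no versions. The annotation, the counting mode and the use of strand are not given in the sources used here. Rows of a symbol were summed, which joined 3 rows for Ciita and 2 each for RT1-CE14, RT1-CE5 and RT1-M5. Groups came from the labels. The main test was edgeR 4.0.16 (R 4.3.3, TMM factors, filterByExpr with a minimum count of 10 and total of 15, robust quasi-likelihood F test, Benjamini-Hochberg adjustment over 9205 symbols, threshold 0.05). The standard error is the absolute log2 fold change over the square root of F. Alternatives used DESeq2 1.42.0, limma 3.58.1 (voom), other scalings and filters, separate rows, a replicate block and each library left out. The test code was tested on simulated data. Totals were 2219685 to 3508282 counts per library, which makes genes under about 10 counts imprecise.

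Members with at least 10 counts in a library were named, as were other pathway genes with an unadjusted p under 0.05 or groups without overlap, up to 10. Members and lists were chosen with earlier results of these data known. Replicate numbers mark different animals and did not pair them. RefSeq sequences and spans are of assembly GRCr8, which differs from the build of the counts, and 54 of 58 members matched by symbol. The p-values measure the spread between these animals.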

Additional observations from a re-analysis of the deposited data

How the results depend on the processing

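The count of members past the adjusted threshold was 0 in the fit reported and under every alternative, except with no low-count filter and with DESeq2, where it was 1, RT1-T24-1. Over all symbols, 5 in the fit reported became 61 with no filter, 1 with a mean CPM of at least 5, 74 with DESeq2, and 13 with the replicate block. It became 0 by library size only (713 at an unadjusted p under 0.05) and 0 with limma voom (740), and 0 to 35 with a library left out. The numbers of the replicates did not pair the animals (correlations of deviations 0.0211, -0.185 and -0.0559), and with the replicate block 0 members passed. The class sums and their ratio, which had no test, moved by less than 1 SD (pooled within groups, log2 scale) under all alternatives run, but changed sign in some: class I was -0.091 as a mean of log2 CPM and -0.091 without doxorubicin 2, class II was 0.012 by library size only and 0.19, 0.097 and 0.20 without control 1, doxorubicin 1 and doxorubicin 3, and the ratio was 0.012 without control 1. Over single members, 42 of 433 alternative log2 fold changes had the opposite sign, 10 of them without doxorubicin 2, and 16 of 31 members never reversed. RT1-Bb was -0.14 with voom and -0.15 with the replicate block, RT1-DMa -0.0057 and -0.0074, and RT1-Db1 -0.22 and -0.23. RT1-CE1 was 0.000196 with median-of-ratios factors, 0.088 by library size only, 0.0024 with no filter and 0.011 at a mean CPM of at least 5. With 1 library left out the ranges were RT1-A1 -0.17 to 0.53, RT1-A3 -0.22 to 0.0017, RT1-Ba -0.87 to 0.21, RT1-Bb -0.81 to 0.47, RT1-CE1 -0.61 to 0.24, RT1-CE4 -0.12 to 0.77, RT1-CE7 -0.48 to 0.15, RT1-DMa -0.30 to 0.29, RT1-DMb -0.48 to 0.083, RT1-Da -0.11 to 0.68, RT1-Db1 -0.89 to 0.39, RT1-EC2 -0.13 to 0.41, RT1-N3 -0.28 to 0.044, RT1-T24-3 -0.50 to 0.91 and Tapbp -0.22 to 0.23. The cause of these changes was not tested.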
